A study of Saccharomyces cerevisiae with 12 samples.

Results

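Budding yeast makes its RNA with 3 nuclear RNA polymerases, and 45 genes for their subunits and dedicated initiation factors are described here. The genes were taken by symbol from the array annotation, and all 45 had a probe among the 6388 gene probes of the array. They comprise 7 subunits of RNA polymerase I (Pol I) alone, 7 of Pol II alone, 10 of Pol III alone, 5 carried by all 3 enzymes and 2 carried by Pol I and Pol III. The other members are 1 subunit of TFIIIB, 6 subunits of TFIIIC and 7 Pol I initiation factors.

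Pol I transcribes the large ribosomal RNA precursor, Pol II the protein-coding genes, and Pol III the tRNAs, 5S rRNA and other small RNAs. Each enzyme has a core of corresponding subunits, some of them encoded by the same gene, and each is brought to its promoters by its own factors. TFIIIC binds inside tRNA genes and places TFIIIB in front of them, and Pol I uses an upstream activating factor, a core factor and Rrn3. TBP, the TATA-box factor that SPT15 encodes, takes part in initiation by all 3 enzymes. Mot1 is an ATPase that removes TBP from DNA, and NC2β, encoded by NCB2, is one of the subunits of NC2, which represses by binding TBP on the promoter.

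Transcript levels were measured on 12 two-colour spotted arrays, 2 for each of 6 groups, whose 2 cultures were begun from separate colonies. Strain YGP200 carries Mot1 tagged with FRB (Mot1-FRB) and was grown with or without rapamycin. Strain YGP201 carries FRB-tagged NCB2 (NCB2-FRB), also with or without rapamycin, and the untagged wild type HHY168 was grown in the same 2 ways. Rapamycin was given at 1 µg/ml for 60 min, all cultures were in synthetic medium with 2% glucose, and every array carried the same reference, RNA of untreated wild type. As background, FRB is a domain that binds rapamycin together with FKBP12, and in anchor-away strains FKBP12 is fused to a ribosomal protein so that rapamycin draws an FRB-tagged nuclear protein into the cytoplasm. HHY168 is known as such a strain, with a rapamycin-insensitive TOR allele; the labels give no genotype beyond the tags, and the position of the tagged proteins was not measured here. Rapamycin, not the tag alone, separates the groups of a tagged strain, and the treated wild type carries the drug without an FRB tag.

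Each value below is the log2 ratio of the culture over the reference, mean of the 2 spots of a probe, so that 0 is the level of the common reference. The untreated wild-type cultures of this series did not lie at 0 for every member, with RPA12 at 0.22 and 0.51. A ratio is relative to all gene spots of its array, and in such bulk RNA fewer cells with a transcript and less of it per cell cannot be told apart. Values of different genes are not compared as levels, only as changes. The letters a and b of the cultures also name the dye: the culture was labelled with Cy3 in a and with Cy5 in b in every group.

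One array, that of wild-type culture a with rapamycin, stood apart from the others. Its median signal was 69.73, against 412.5 to 1231 on the other 11 arrays, its signal over background was 1.608 against 8.249 to 21.59, and 71.3% of its probes lay above the blank spots against 95.6% to 99.5%. The signal of the common reference on that array had a correlation across gene spots of 0.668 to 0.719 with the other arrays, whereas the other arrays had 0.971 to 0.996 among themselves. The probes of RPB4, RPB11, RPB10, RPO31, RRN6, RRN7 and RRN11 were not above the blanks there, so results against wild type are also given without this array. Of the mating-type genes, probes for the alpha-specific MF(ALPHA)1, MF(ALPHA)2 and STE3 were above the blanks on all 12 arrays, but so were those for STE2 and BAR1, and MFA1 and MFA2 were above on 11, so the blanks did not separate the mating types.

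The RPC19 probe, for the smaller partner of RPC40 in Pol I and Pol III, gave no usable measurement in the tagged strains. On the 8 arrays of these strains its signal was 34.34 to 55.95 in the culture and 34.86 to 54.6 in the reference, below the blank threshold in both channels. On 3 wild-type arrays it was 2216 to 3797 in the culture and 1198 to 2900 in the reference, and on the dim wild-type array 58.31 and 86.39. The reference is the same RNA on every array, so the missing signal was not particular to the cultures. RPC19 was the 1 probe of the array with this pattern, and 6 probes had the opposite one. The labels do not name print batches of slides, so such a batch and the strain cannot be told apart in comparisons of tagged strains with wild type. RPC19 stays in the counts over 45 members, and no fold change is given for it. In the fit of all arrays without the block it was called in no comparison. On leaving out untreated wild-type culture b, it was called in both tagged strains' rapamycin effects against that of wild type. It was then also called in untreated Mot1-FRB against untreated wild type.

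Rapamycin lowered many of the polymerase genes in both tagged strains and raised few (the map of the members by array). In Mot1-FRB, 19 of the 45 members fell and 3 rose at an adjusted p under 0.05 (limma, Benjamini-Hochberg over all probes), while 15.3% of all probes fell and 22.0% rose. In NCB2-FRB, 13 members fell and 6 rose, while 18.2% of all probes fell and 22.8% rose. The median log2 change over the members was -0.25 in Mot1-FRB and -0.14 in NCB2-FRB, against 0.0097 and -0.0061 over all probes. Without treated NCB2-FRB culture b the NCB2-FRB median was -0.065. With the letter as a replicate block, 30 members fell and 3 rose in Mot1-FRB against 28.5% and 33.9% of all probes, and 22 fell and 8 rose in NCB2-FRB against 30.8% and 31.8%. Where only the median of each array was centred, with no loess, the counts dropped to 5 lower and 1 higher in Mot1-FRB, and to 1 lower and 1 higher in NCB2-FRB. Of all 6388 probes, 131 were then lower and 376 higher in Mot1-FRB, and 212 lower and 484 higher in NCB2-FRB.

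**Figure D1:**
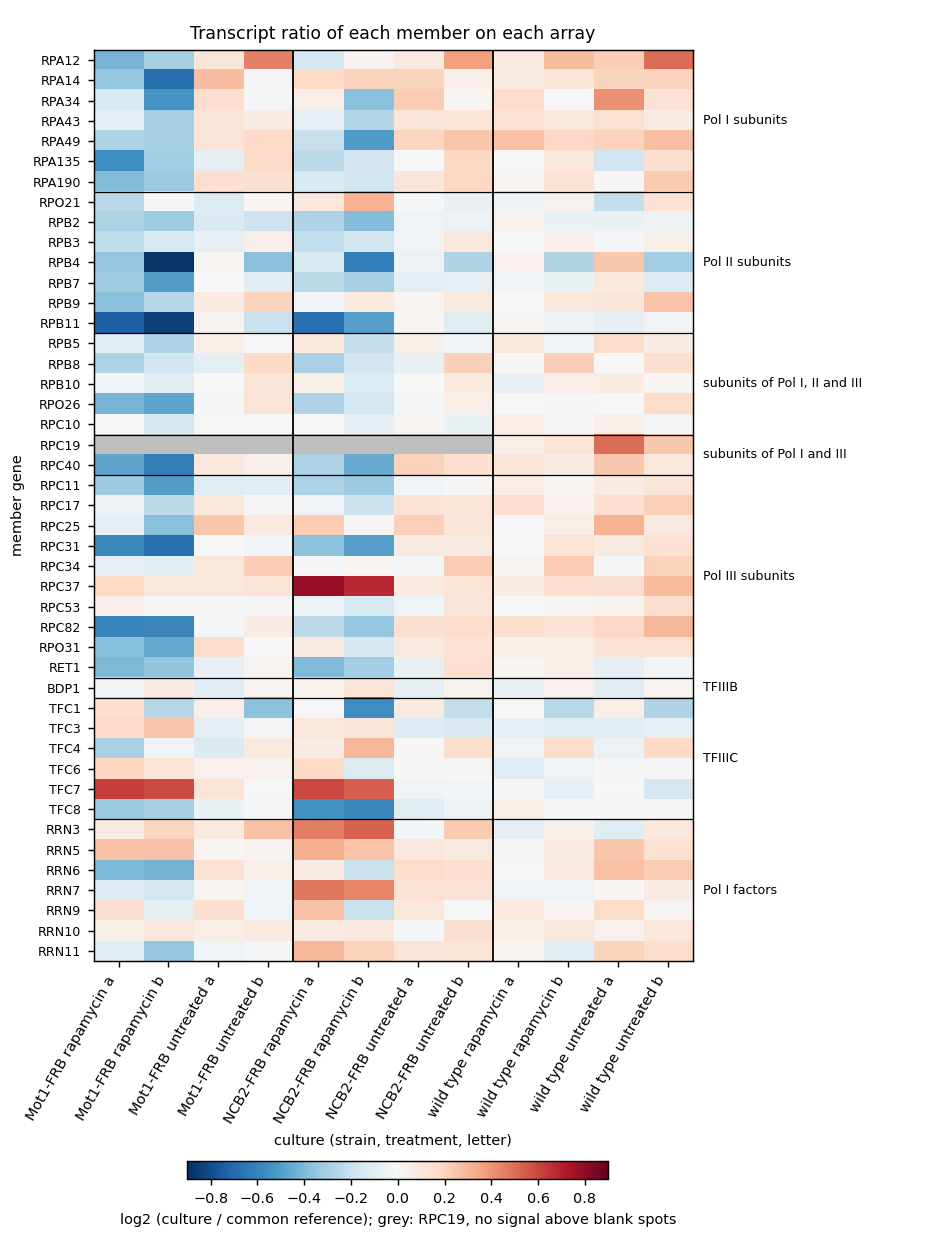
Log2 ratio of culture over common reference (colour) for the 45 members (rows, by class) on the 12 arrays (columns). Blue cells gather in the treated Mot1-FRB and NCB2-FRB columns among the subunit classes, the TFIIIC and Pol I factor rows are mixed, and the wild-type columns are mostly pale. RPC19 had no signal on the 8 grey cells.

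The members did not overlap between treated and untreated cultures in many cases. Both treated arrays were lower than both untreated ones for 29 members of Mot1-FRB cultures and for 22 of NCB2-FRB cultures, against 31.5% and 33.1% of all probes. Both treated arrays were higher for 4 members in Mot1-FRB and for 9 in NCB2-FRB, against 35.8% and 33.6% of all probes. In 11 members the fall was called in both strains: RPA43, RPA49, RPA190, RPB11, RPO26, RPC40, RPC11, RPC31, RPC82, RET1 and TFC8. Both strains had TFC3, TFC7 and RRN5 higher. No member was called in opposite directions without the block, and 18 were called in neither strain. The shares of all probes called in both strains or in neither are not given here. The effects of the tagged strains had a Pearson r of 0.88 over all 6388 probes, so these counts are not read as particular to the members.

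In the untagged wild type no member passed the test with rapamycin: 0 of 45 were called, as were 0% of all probes in either direction. At an unadjusted p under 0.05 there were 4 members, RPC19, RRN5, RRN6 and RRN11, each lower with rapamycin, and 120 of all 6388 probes. Both treated arrays were lower than both untreated ones for 13 members, RPC19 among them, and higher for 1. Over all probes these shares were 11.7% and 12.2%. The change was below 0 for 31 of 45 members, against 3049 of 6388 probes. The median log2 change over the 44 members other than RPC19 was -0.045, and their changes ranged from -0.22 to 0.09. The wild-type comparison has the dim array in 1 of its 2 treated cultures, and without that array the count was again 0.

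**Figure D2:**
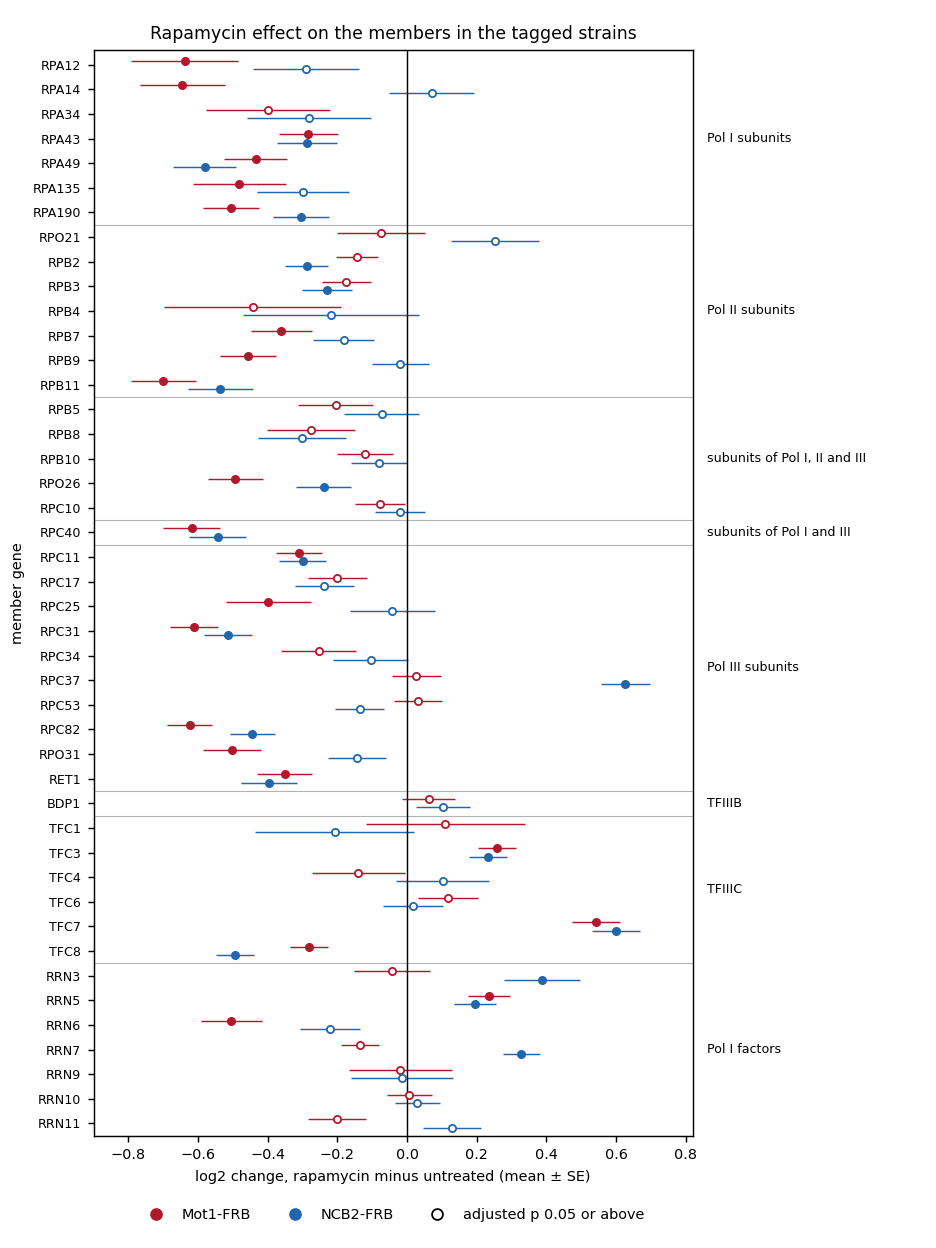
Log2 change with rapamycin (mean ± SE from the fit over 12 arrays, 2 cultures a group) for the 44 members with signal, Mot1-FRB in red and NCB2-FRB in blue; filled points passed an adjusted p of 0.05. Most subunit points lie left of 0, RPC37 lies at 0.63 in NCB2-FRB and at 0.03 in Mot1-FRB, and TFC7 lies right in both strains.

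The counts by class stand beside all probes, of which 15.3% fell and 22.0% rose in Mot1-FRB, and 18.2% fell and 22.8% rose in NCB2-FRB. Of the subunits of Pol I alone, 6 of 7 fell in Mot1-FRB with a median change of -0.48, and 3 of 7 in NCB2-FRB with a median of -0.29, and none rose. The count was 3 without untreated Mot1-FRB culture b. In NCB2-FRB it was 1 without treated culture b or without untreated culture b, and 2 without untreated culture a. RPA190, the largest subunit, stood at -0.39 and -0.33 in treated Mot1-FRB cultures a and b, against 0.15 and 0.14 in the untreated ones. It stood at -0.13 and -0.18 in treated NCB2-FRB cultures, against 0.11 and 0.18 in untreated ones. The treated cultures were the lower ones in both strains, with no overlap, by 1.42-fold in Mot1-FRB (log2 change -0.51 ± 0.081 SE, n = 2 and 2, adjusted p = 0.00126 in limma) and by 1.24-fold in NCB2-FRB (adjusted p = 0.0146). The NCB2-FRB call was lost without treated or untreated culture b (adjusted p = 0.069 and 0.0869).

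RPA49 encodes one partner of a heterodimer that helps Pol I start and elongate. Its ratio was -0.28 and -0.30 in treated Mot1-FRB cultures, against 0.12 and 0.17 in untreated ones. NCB2-FRB had it at -0.21 and -0.51 in treated cultures, against 0.19 and 0.25 in untreated ones, the largest fall of the 7 Pol I subunits in that strain (1.5-fold, adjusted p = 0.00097). Its partner RPA34 changed by -0.40 ± 0.18 in Mot1-FRB and -0.28 ± 0.18 in NCB2-FRB, which passed with the replicate block but not without it (adjusted p = 0.00099 and 0.0065).

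RPA12, a zinc-binding subunit needed for RNA cleavage by Pol I, was at -0.42 and -0.30 in treated Mot1-FRB cultures, against 0.11 and 0.45 in untreated ones. Culture b was above culture a in both pairs, and the call (log2 change -0.64 ± 0.15, adjusted p = 0.0098) was lost without untreated culture b or without treated culture a (adjusted p = 0.0758 and 0.0527). The NCB2-FRB values were -0.16 and 0.03 in treated cultures, against 0.08 and 0.37 in untreated ones. The groups did not overlap there either, but the change of -0.29 passed with the block but not without it (adjusted p = 0.0016).

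RPA135, the second-largest subunit, was at -0.56 and -0.31 in treated Mot1-FRB cultures, against -0.08 and 0.17 in untreated ones, a change of -0.48 ± 0.13 (adjusted p = 0.0191). That call too was lost without treated culture a or untreated culture b (adjusted p = 0.117 and 0.13). Its ratio in NCB2-FRB was -0.24 and -0.17 in treated cultures, against 0.01 and 0.18 in untreated ones, a change of -0.30 that passed with the block but not without it (adjusted p = 0.0023).

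The Pol I stalk, the arm that docks Rrn3, is made of the products of RPA14 and RPA43, and RPA43 fell in both strains but RPA14 in Mot1-FRB. RPA14 fell 1.56-fold in Mot1-FRB (log2 change -0.65 ± 0.12, adjusted p = 0.00295), whereas in NCB2-FRB its change was 0.07 ± 0.12 and the treated and untreated cultures overlapped. The test of that difference gave -0.72 ± 0.17 with an adjusted p of 0.112, and of 0.01 with the block. RPA43 fell by a like amount in both strains, -0.28 ± 0.085 in Mot1-FRB and -0.29 ± 0.085 in NCB2-FRB. Neither RPA43 call held in the authors' own log2 ratios, where the adjusted p was 0.41 and 0.38, and each was lost on leaving out any of 3 arrays of its strain. RPA43 and RPA190 are the 1 pair of members that are neighbouring genes in the reference gene table.

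Among the subunits of Pol II alone, falls were called for RPB7, RPB9 and RPB11 in Mot1-FRB and for RPB2, RPB3 and RPB11 in NCB2-FRB. In Mot1-FRB 3 of 7 fell with a median change of -0.36, and in NCB2-FRB 3 of 7 with a median of -0.22. Over all probes 15.3% and 18.2% fell in the same order. RPB11, which pairs with the RPB3 product in the assembly platform, had the largest fall of all members in Mot1-FRB. It was at -0.73 and -0.84 in treated Mot1-FRB cultures, against 0.03 and -0.20 in untreated ones, 1.63-fold lower (log2 change -0.70 ± 0.093, adjusted p = 0.000466). The ratio for NCB2-FRB was -0.67 and -0.50 in treated cultures, against 0.01 and -0.11 in untreated ones, 1.45-fold lower (adjusted p = 0.0017). RPB3 itself changed by -0.17 ± 0.071 in Mot1-FRB, past the threshold with the block but not without it (adjusted p = 0.0048), and by -0.23 ± 0.071 in NCB2-FRB (adjusted p = 0.0292), a call lost without any of 3 arrays of that strain.

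RPO21, the largest Pol II subunit with the repeated C-terminal tail, was at -0.25 and -0.01 in treated Mot1-FRB cultures, against -0.12 and 0.01 in untreated ones, which overlap. In NCB2-FRB it was at 0.10 and 0.31 in treated cultures, against -0.02 and -0.07 in untreated ones. Both treated cultures were higher in that strain, but the change of 0.25 ± 0.13 passed with the block but not without it (adjusted p = 0.02). In the authors' values its adjusted p was 0.8. RPB2, the second-largest subunit, was at -0.29 and -0.32 in treated Mot1-FRB cultures, against -0.13 and -0.19 in untreated ones, a change of -0.14 ± 0.061 that passed with the block but not without it (adjusted p = 0.018). NCB2-FRB had it at -0.28 and -0.39 in treated cultures, against -0.04 and -0.05 in untreated ones, and this fall of 1.22-fold was called (adjusted p = 0.00502).

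The Pol II stalk is formed by RPB4 and RPB7. RPB7 was at -0.32 and -0.50 in treated Mot1-FRB cultures, against 0.00 and -0.10 in untreated ones (log2 change -0.36 ± 0.087, adjusted p = 0.0104), a call lost without treated culture b or untreated culture a (adjusted p = 0.0816 and 0.0727). The NCB2-FRB values were -0.23 and -0.30 in treated cultures, against -0.09 and -0.08 in untreated ones, a change of -0.18 that passed with the block but not without it (adjusted p = 0.022). RPB4 had the largest SE of the members: it was at -0.35 and -0.89 in treated Mot1-FRB cultures, against 0.03 and -0.38 in untreated ones, and at -0.15 and -0.61 in treated NCB2-FRB cultures, against -0.05 and -0.27 in untreated ones. The groups overlap in both strains. Its cultures b, labelled with Cy5, were lower than cultures a in all 6 groups, and its changes of -0.44 ± 0.25 and -0.22 ± 0.25 passed with the block but not without it (adjusted p = 0.0009 and 0.034).

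RPB9, a zinc-binding subunit that aids transcription fidelity, fell in Mot1-FRB (log2 change -0.46 ± 0.081, adjusted p = 0.00224) and changed by -0.02 ± 0.081 in NCB2-FRB. The difference between the strains was -0.44 ± 0.11, with an adjusted p of 0.13, and of 0.0031 with the block.

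Of the 5 subunits that all 3 polymerases carry, 1 passed the test, with a fall in both strains. That share is near the 15.3% of all probes that fell in Mot1-FRB and the 18.2% in NCB2-FRB. RPO26, known as Rpb6, was at -0.42 and -0.47 in treated Mot1-FRB cultures, against -0.02 and 0.12 in untreated ones, a 1.41-fold fall (log2 change -0.49 ± 0.079, adjusted p = 0.00128). Its ratio in NCB2-FRB was -0.28 and -0.16 in treated cultures, against -0.02 and 0.06 in untreated ones (log2 change -0.24, adjusted p = 0.0371). The NCB2-FRB call was lost on leaving out any of 5 arrays, 3 of that strain and both treated wild-type arrays.

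RPB8 was at -0.28 and -0.17 in treated Mot1-FRB cultures, against -0.08 and 0.18 in untreated ones, and at -0.29 and -0.16 in treated NCB2-FRB cultures, against -0.07 and 0.22 in untreated ones. The treated cultures were the lower in both strains, and the changes of -0.28 and -0.30 passed with the block but not without it (adjusted p = 0.0016 and 0.00084). RPB5 was at -0.09 and -0.28 in treated Mot1-FRB cultures, against 0.05 and -0.01 in untreated ones, a change of -0.21 that passed with the block but not without it (adjusted p = 0.017). The ratio for NCB2-FRB was 0.10 and -0.22 in treated cultures, against 0.05 and -0.03 in untreated ones, which overlap. RPB10 and RPC10, which encode the smallest common subunits, had changes of -0.12 and -0.08 in Mot1-FRB and of -0.08 and -0.02 in NCB2-FRB, and did not pass with or without the block.

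RPC40, the alpha-like platform subunit of Pol I and Pol III, fell in both strains. It was at -0.48 and -0.62 in treated Mot1-FRB cultures, against 0.09 and 0.05 in untreated ones, 1.54-fold lower (log2 change -0.62 ± 0.082, adjusted p = 0.000465). In NCB2-FRB it was at -0.28 and -0.46 in treated cultures, against 0.21 and 0.15 in untreated ones, 1.46-fold lower (adjusted p = 0.000808). Both calls held on leaving out each array in turn.

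Among the 10 subunits of Pol III alone, 6 fell and none rose in Mot1-FRB, with a median change of -0.33, while 4 fell and 1 rose in NCB2-FRB, with a median of -0.19. Over all probes 15.3% fell and 22.0% rose in Mot1-FRB, and 18.2% fell and 22.8% rose in NCB2-FRB. RPC82, RPC34 and RPC31 encode a trimer that Pol III needs to start transcription. RPC82 was at -0.60 and -0.59 in treated Mot1-FRB cultures, against -0.01 and 0.07 in untreated ones, 1.54-fold lower (log2 change -0.62 ± 0.065, adjusted p = 0.000125). NCB2-FRB had it at -0.24 and -0.35 in treated cultures, against 0.14 and 0.16 in untreated ones, 1.36-fold lower (adjusted p = 0.000655).

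RPC31 was at -0.58 and -0.67 in treated Mot1-FRB cultures, against -0.00 and -0.02 in untreated ones. It was at -0.37 and -0.49 in treated NCB2-FRB cultures, against 0.08 and 0.08 in untreated ones. The fall was 1.53-fold in Mot1-FRB (adjusted p = 0.000179) and 1.43-fold in NCB2-FRB (adjusted p = 0.000389). These calls of RPC82 and RPC31 held on leaving out each array in turn. The third gene of the trimer, RPC34, changed by -0.25 ± 0.11 in Mot1-FRB, past the threshold with the block but not without it (adjusted p = 0.0093), and by -0.10 in NCB2-FRB.

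RPO31, the largest Pol III subunit, was at -0.39 and -0.46 in treated Mot1-FRB cultures, against 0.16 and 0.00 in untreated ones, 1.42-fold lower (log2 change -0.50 ± 0.083, adjusted p = 0.0015). The NCB2-FRB values were 0.08 and -0.15 in treated cultures, against 0.09 and 0.13 in untreated ones. The change in NCB2-FRB, -0.14 ± 0.083, did not pass, but did in the authors' values and without treated culture a (adjusted p = 0.0033 and 0.036), and the difference between strains, -0.36 ± 0.12, passed with the block but not without it (adjusted p = 0.032). RET1, the second-largest subunit, was at -0.40 and -0.35 in treated Mot1-FRB cultures, against -0.08 and 0.02 in untreated ones, and at -0.40 and -0.31 in treated NCB2-FRB cultures, against -0.07 and 0.15 in untreated ones. It was 1.28-fold lower in Mot1-FRB (adjusted p = 0.00773), a call lost without untreated culture b (adjusted p = 0.0584), and 1.32-fold lower in NCB2-FRB (adjusted p = 0.00371).

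RPC11, which serves RNA cleavage and termination by Pol III, fell 1.24-fold in Mot1-FRB and 1.23-fold in NCB2-FRB (adjusted p = 0.00564 and 0.00615). Of the stalk genes, RPC25 fell in Mot1-FRB (log2 change -0.40 ± 0.12, adjusted p = 0.0302), a call lost without treated culture b or untreated culture a (adjusted p = 0.197 and 0.165), and changed by -0.04 in NCB2-FRB. Its partner RPC17 changed by -0.20 in Mot1-FRB and -0.24 in NCB2-FRB, past the threshold with the block but not without it (adjusted p = 0.019 and 0.0078).

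RPC37 was the 1 polymerase subunit that rose without the block. With the RPC53 product it forms a heterodimer that serves termination and reinitiation by Pol III. RPC37 was at 0.18 and 0.10 in treated Mot1-FRB cultures, against 0.10 and 0.12 in untreated ones, a change of 0.03 with overlapping groups. Its ratio in NCB2-FRB was 0.78 and 0.68 in treated cultures, against 0.09 and 0.12 in untreated ones, 1.54-fold higher (log2 change 0.63 ± 0.07, adjusted p = 0.000159). The 4 wild-type cultures lay between 0.07 and 0.29. RPC53 did not follow, with changes of 0.03 ± 0.07 in Mot1-FRB and -0.14 ± 0.07 in NCB2-FRB, neither of which passed.

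BDP1, the TFIIIB subunit among the members, was at -0.02 and 0.07 in treated Mot1-FRB cultures, against -0.10 and 0.02 in untreated ones. The ratio for NCB2-FRB was 0.03 and 0.12 in treated cultures, against -0.08 and 0.03 in untreated ones. The changes of 0.06 and 0.10 did not pass, and that of NCB2-FRB passed with the block (adjusted p = 0.033). The other TFIIIB genes were BRF1 and SPT15. BRF1 changed by -0.16 ± 0.087 in Mot1-FRB, past the threshold with the block but not without it (adjusted p = 0.041), and by -0.12 ± 0.087 in NCB2-FRB. SPT15, for TBP, was at 0.31 and 0.34 in treated Mot1-FRB cultures, against 0.14 and 0.12 in untreated ones, a change of 0.20 ± 0.071 that passed with the block but not without it (adjusted p = 0.011). In NCB2-FRB it was at 0.46 and 0.62 in treated cultures, against 0.03 and 0.09 in untreated ones (1.39-fold higher, adjusted p = 0.000759).

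TFIIIC genes moved in both directions within the same complex. In each strain 2 of 6 rose and 1 fell, with a median change of 0.11 in Mot1-FRB and 0.059 in NCB2-FRB. Over all probes 22.0% rose and 15.3% fell in Mot1-FRB, and 22.8% rose and 18.2% fell in NCB2-FRB. With 6 genes, counts of this size are not read as a trait of the complex. The Mot1-FRB median was 0.039 without treated culture a, 0.18 without treated culture b, 0.17 without untreated culture a and 0.044 without untreated culture b. The NCB2-FRB median was 0.12 without treated culture b, 0.023 without untreated culture a and 0.096 without untreated culture b. TFC7, TFC1 and TFC4 encode the lobe that contacts the A box of tRNA genes and recruits TFIIIB. TFC7 was at 0.62 and 0.59 in treated Mot1-FRB cultures, against 0.12 and 0.00 in untreated ones, 1.46-fold higher (adjusted p = 0.00037). NCB2-FRB had it at 0.60 and 0.54 in treated cultures, against -0.03 and -0.03 in untreated ones, 1.52-fold higher (adjusted p = 0.000187).

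The groups of TFC7 did not overlap in either strain, and both calls held on leaving out each array in turn. TFC4 and TFC1 did not share that rise. TFC4 changed by -0.14 in Mot1-FRB and 0.10 in NCB2-FRB, and TFC1 by 0.11 in the first strain and -0.21 in the second. With the block, the TFC4 change passed in Mot1-FRB (adjusted p = 0.016) and the TFC1 change in NCB2-FRB (adjusted p = 0.022).

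TFC3, TFC6 and TFC8 encode the lobe that holds the B box. TFC8 was at -0.33 and -0.30 in treated Mot1-FRB cultures, against -0.06 and -0.01 in untreated ones, 1.21-fold lower (adjusted p = 0.00356). The NCB2-FRB values were -0.54 and -0.58 in treated cultures, against -0.09 and -0.04 in untreated ones, 1.41-fold lower (adjusted p = 0.000141). The difference between the strains, 0.21 ± 0.077, had an adjusted p of 0.238, and of 0.045 with the block.

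TFC3, whose product binds the B box, was at 0.17 and 0.25 in treated Mot1-FRB cultures, against -0.08 and -0.02 in untreated ones, and at 0.10 and 0.12 in treated NCB2-FRB cultures, against -0.12 and -0.13 in untreated ones. The treated cultures were the higher in both strains, by 1.2-fold and 1.18-fold (adjusted p = 0.00549 and 0.00821). TFC6 changed by 0.12 and 0.02 and did not pass with or without the block.

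The 7 Pol I factors had median changes of -0.044 in Mot1-FRB and 0.13 in NCB2-FRB, with members on either side. Leaving out any 1 of the 4 Mot1-FRB arrays gave -0.14 to -0.082 in that strain, and the NCB2-FRB median was 0.084 without treated culture a and 0.22 without treated culture b. RRN6, RRN7 and RRN11 encode the core factor. RRN6 was at -0.40 and -0.43 in treated Mot1-FRB cultures, against 0.13 and 0.05 in untreated ones, 1.42-fold lower (log2 change -0.50 ± 0.087, adjusted p = 0.00194). Its ratio in NCB2-FRB was 0.08 and -0.20 in treated cultures, against 0.16 and 0.15 in untreated ones. That change of -0.22 passed with the block (adjusted p = 0.025) and without treated culture a. Untagged wild type also had RRN6 lower with rapamycin, at 0.00 and 0.09 in treated cultures, against 0.27 and 0.23 in untreated ones. The fall in NCB2-FRB is therefore not read as particular to the tagged strain.

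RRN7, which is related to the Pol II factor TFIIB, rose in NCB2-FRB. It was at -0.12 and -0.16 in treated Mot1-FRB cultures, against 0.03 and -0.03 in untreated ones, a change of -0.14 ± 0.054 that passed with the block but not without it (adjusted p = 0.02). The ratio for NCB2-FRB was 0.48 and 0.44 in treated cultures, against 0.13 and 0.13 in untreated ones, 1.26-fold higher (log2 change 0.33 ± 0.054, adjusted p = 0.00126). RRN11 changed by -0.20 in Mot1-FRB, past the threshold with the block but not without it (adjusted p = 0.02), and by 0.13 in NCB2-FRB. Wild type had RRN11 lower with rapamycin too, at 0.02 and -0.10 in treated cultures, against 0.20 and 0.16 in untreated ones.

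RRN3, which binds Pol I and makes it competent to start, was at 0.07 and 0.20 in treated Mot1-FRB cultures, against 0.09 and 0.26 in untreated ones, which overlap. In NCB2-FRB it was at 0.46 and 0.53 in treated cultures, against -0.02 and 0.23 in untreated ones, 1.31-fold higher (adjusted p = 0.0199). The call was lost without treated culture b or untreated culture a (adjusted p = 0.0908 and 0.147).

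RRN5, of the upstream activating factor, was at 0.26 and 0.26 in treated Mot1-FRB cultures, against 0.02 and 0.04 in untreated ones. It was at 0.32 and 0.25 in treated NCB2-FRB cultures, against 0.10 and 0.08 in untreated ones. The rises of 1.18-fold and 1.15-fold passed (adjusted p = 0.0131 and 0.0277), and were lost on leaving out any of the 4 arrays of Mot1-FRB and any of 3 arrays of NCB2-FRB. Wild type had RRN5 lower with rapamycin, at 0.01 and 0.08 in treated cultures, against 0.25 and 0.14 in untreated ones. The other members of the upstream activating factor, RRN9 and RRN10, had changes from -0.02 to 0.03 in the 2 tagged strains, and none passed with or without the block. UAF30, a subunit outside the 45 members, changed by 0.18 ± 0.083 in Mot1-FRB and -0.05 ± 0.083 in NCB2-FRB, and did not pass with or without the block.

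**Figure D3:**
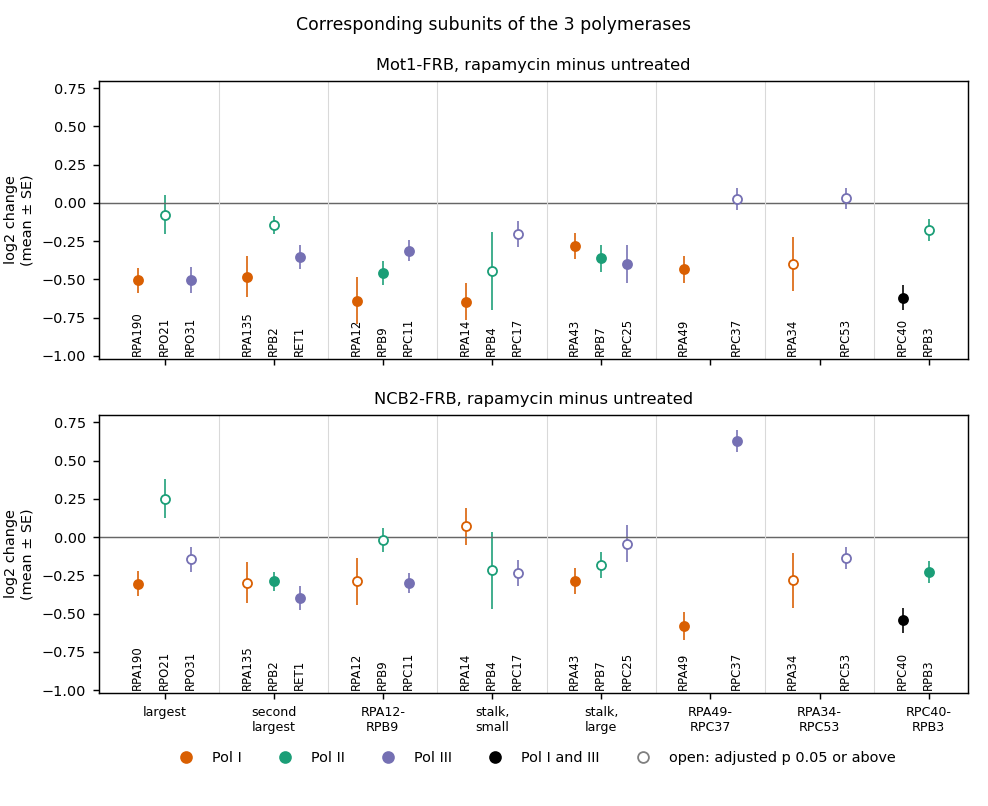
Log2 change with rapamycin (mean ± SE, 2 cultures a group) for corresponding subunits of Pol I (orange), Pol II (green) and Pol III (purple), with RPC40 of Pol I and III in black; Mot1-FRB above, NCB2-FRB below, filled where the adjusted p was under 0.05. In Mot1-FRB the largest subunits of Pol I and Pol III lie at -0.51 and -0.50 and that of Pol II at -0.08.

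The changes of genes for corresponding subunits are set side by side by structural position, as a description with no test between genes. For the largest subunits the log2 change in Mot1-FRB was -0.51 for RPA190, -0.08 for RPO21 and -0.50 for RPO31, and in NCB2-FRB it was -0.30, 0.25 and -0.14 in the same order. For the second-largest it was -0.48 for RPA135, -0.14 for RPB2 and -0.35 for RET1 in Mot1-FRB; the NCB2-FRB values were -0.30, -0.29 and -0.40. The small zinc-binding subunits RPA12, RPB9 and RPC11 changed by -0.64, -0.46 and -0.31 in Mot1-FRB and by -0.29, -0.02 and -0.30 in NCB2-FRB. The heterodimer genes RPA49 and RPC37 changed by -0.43 and 0.03 in Mot1-FRB and by -0.58 and 0.63 in NCB2-FRB. Their partners RPA34 and RPC53 did not show that opposition in NCB2-FRB, where both were lower with rapamycin. In Mot1-FRB RPA34 was lower and RPC53 slightly higher, and none of these partner changes passed without the block. The stalk genes, RPC40 and RPB3 are given above by class.

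Across the 45 genes the log2 changes had a Pearson r of 0.702 between the tagged strains, against 0.88 over all 6388 probes. Of the members 36 of 45 (80.0%) had the same sign in both, a share close to the 82.3% of all probes (5256 of 6388). The 2 effects share no array, but both share the dye of each letter and the reference, and genes are not independent replicates. The absolute change was larger in Mot1-FRB for 27 of the 45 members (60.0%), against 2965 of the 6388 probes (46.4%).

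The strains differed by the test of the difference itself in 2 members, RPC37 and RRN7, both lower in the Mot1-FRB response, against 0.282% of all probes lower and 0.219% higher. The difference was -0.60 ± 0.099 for RPC37 and -0.46 ± 0.076 for RRN7, each with an adjusted p of 0.046, and of 0.0047 and 0.0034 with the block. Both calls were lost on leaving out any 1 of the 12 arrays, with adjusted p-values of at most 0.191. With the block, 10 members were lower and 1 higher, against 7.81% and 8.56% of all probes. Those 11 were RPC37, RRN7, RPA12, RPA14, RPB9, RPC25, RPO31, TFC4, RRN3 and RRN11, and TFC8 as the 1 that was higher. With the block RRN7 fell in Mot1-FRB and rose in NCB2-FRB.

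**Figure D4:**
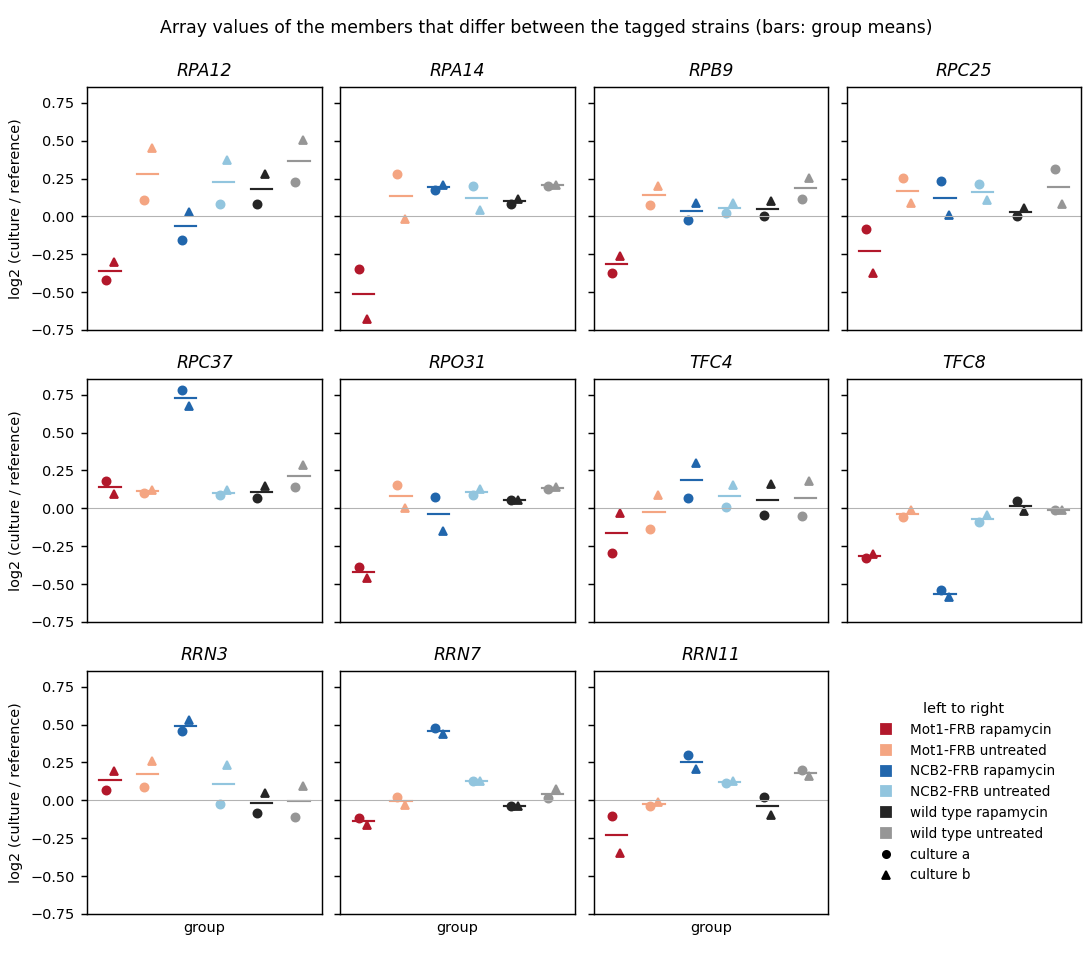
Log2 ratio of culture over reference on each array for the 11 members whose rapamycin effect differed between the tagged strains with the replicate block; circles are culture a, triangles culture b and bars the group means, with groups from left to right as in the key. RPC37, RRN3 and RRN7 are high in treated NCB2-FRB alone, and RPA14 and RPB9 are low in treated Mot1-FRB alone.

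Against the wild-type response, 10 members fell and 3 rose further in Mot1-FRB, while 6.70% of all probes fell and 12.7% rose. In NCB2-FRB 8 fell and 4 rose further, while 8.95% of all probes fell and 14.5% rose. Both comparisons use the same wild-type arrays. RPB11 was at 0.02 and -0.05 in treated wild-type cultures a and b, against -0.08 and -0.03 in untreated ones, and TFC7 at -0.01 and -0.08, against -0.01 and -0.15. The excess of RPB11 in Mot1-FRB was -0.75 ± 0.13 (adjusted p = 0.00513), but its probe was not above the blanks on 1 of the 4 wild-type arrays, treated culture a, without which it was -0.71 ± 0.16 (adjusted p = 0.0226). For RPC37 in NCB2-FRB it was 0.73 ± 0.099 (adjusted p = 0.0012), and 0.69 ± 0.11 without that array (adjusted p = 0.00741). TFC7 exceeded the wild-type response by 0.51 ± 0.098 in Mot1-FRB and 0.57 ± 0.098 in NCB2-FRB, and for RPC31 the excess was -0.57 ± 0.096 and -0.47 ± 0.096. Without the dim treated wild-type culture a, the counts were 5 lower and 2 higher in Mot1-FRB, against 4.09% and 9.44% of all probes, and 5 lower and 3 higher in NCB2-FRB, against 5.42% and 10.9%. With the block they were 23 lower and 4 higher in Mot1-FRB, 1 of the 4 being the unusable RPC19 probe, against 19.3% and 25.5% of all probes, and 14 lower and 7 higher in NCB2-FRB, against 22.9% and 25.5%.

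Without rapamycin no member differed from wild type past the threshold in either tagged strain. In untreated Mot1-FRB against untreated wild type, 0 of 45 passed, while 0.861% of all probes were higher and 0.110% lower. At an unadjusted p under 0.05 there were 5 members and 634 of all 6388 probes, a like share. The 5 members were RPC11, RPC82, RRN5 and RRN11, with differences of -0.17 to -0.21, and RPC19. In untreated NCB2-FRB 0 of 45 passed, against 0.0157% of all probes higher and 0% lower. RPC19 was the 1 member with an unadjusted p under 0.05 there, against 127 of all 6388 probes. RPC19 was also the 1 member called with the block in untreated Mot1-FRB, where 5.03% of all probes were then higher and 1.99% lower, and it is the probe with no signal in either channel of the tagged strains' arrays.

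Regulators and assembly factors of the same machinery were listed with earlier results of these data known, and 31 of the 36 were named on the array. Over all probes 22.0% rose and 15.3% fell in Mot1-FRB, and 22.8% rose and 18.2% fell in NCB2-FRB. With the block 33.9% rose and 28.5% fell in Mot1-FRB, and 31.8% rose and 30.8% fell in NCB2-FRB. Some of the smaller counts here and in the next paragraph are near these shares. The Pol III factors and regulators had a rise in 2 of 7 in Mot1-FRB and in 3 of 7 in NCB2-FRB, and no fall; with the block 3 rose and 1, BRF1, fell in Mot1-FRB. MAF1, the repressor of Pol III under starvation and stress, was at 0.94 and 0.92 in treated Mot1-FRB cultures, against 0.27 and 0.16 in untreated ones, 1.64-fold higher (adjusted p = 8.8e-05). NCB2-FRB had it at 1.03 and 1.06 in treated cultures, against 0.14 and -0.01 in untreated ones, 1.98-fold higher (adjusted p = 1.4e-05). NHP6B, an HMG protein that helps Pol III transcription, rose 1.65-fold in Mot1-FRB and 1.91-fold in NCB2-FRB. The KNS1 and MCK1 kinases, which act on the RPC53 product, changed by 0.10 and -0.10 in Mot1-FRB and by 0.18 and -0.15 in NCB2-FRB and did not pass with or without the block.

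Of 6 genes for the Pol I template and its regulators, 3 fell in Mot1-FRB and 1 in NCB2-FRB, or 2 in NCB2-FRB with the block. FOB1, which blocks replication forks in the rDNA, fell in both (log2 change -0.36 ± 0.077 in each, adjusted p = 0.00561 and 0.0052). HMO1, an HMG protein of the active rDNA, fell in Mot1-FRB (-0.48 ± 0.11, adjusted p = 0.00755, and 0.0504 without untreated culture b) and changed by -0.02 in NCB2-FRB, a difference that passed with the block but not without it (adjusted p = 0.0049). Of 5 genes for assembly and import, 1 fell in Mot1-FRB and 2 in NCB2-FRB. RBA50, which takes part in Pol II assembly, was among them in both strains, 1.54-fold and 1.37-fold lower. Of 13 Pol II elongation and C-terminal domain factors 4 fell in each strain and none rose, with SPT4, PAF1 and LEO1 in both. With the block 8 fell and 2 rose in Mot1-FRB, against 28.5% and 33.9% of all probes. In NCB2-FRB 9 then fell and 1 rose, against 30.8% and 31.8%.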

How the data were processed

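Labelled RNA of 12 cultures was hybridised against a common reference, with culture a in Cy3 and culture b in Cy5. Per the labels' protocols, slides were scanned on an Agilent scanner and quantified with Imagene; the deposited intensity columns hold spot signals and backgrounds, and the authors' normalized intensities came from print-tip loess (span 0.4) without background subtraction and with a dye-bias correction. The authors' value table holds the log2 ratio of culture over reference of those normalized intensities, equal to within 4.99e-06. The genome build is not given in the sources used here.

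Deposited raw intensities were background-corrected (normexp, offset 50) and normalized by loess (span 0.3, 4 iterations) on 12776 gene spots; 1872 external control and 904 blank or quality control spots were left out. The 2 spots of each of 6388 probes were averaged, and 5326 probes carry a symbol. One limma model (3.58.1, R 4.3.3) with 6 group means used all 12 arrays (6 residual and 3 prior degrees of freedom); p-values were adjusted by Benjamini-Hochberg over all 6388 probes, with a threshold of 0.05. The number of arrays limits the precision, and the median SE was 0.083 for an effect and 0.117 for a difference of effects. A probe counted as above the blanks past their 95th percentile, and 37 of the 45 members were so on all arrays. The fit was tested on simulated data.

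Arrays of the same letter deviated together in all 15 pairs of groups (correlation 0.482 to 0.817, median 0.66), so the letter, which also marks the dye, was used as a replicate block in an alternative. The other alternatives were print-tip loess, median centring, external control centring, no background subtraction, the authors' values, dim probes left out and each array left out in turn. All members may be named; values on every array were given for up to 3 members of each class with the largest mean effect over the tagged strains, for called members whose sign opposes their class median, for the counterparts of the 2 largest subunits, and for up to 5 members with the smallest p called in an excess, a difference or an untreated comparison. The members and lists were chosen with earlier results of these data known. Promoter and protein sequences were not used here. Python 3.11.15, pandas 2.3.3 and matplotlib 3.10.9 made the summaries and figures.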

Additional observations from a re-analysis of the deposited data

Results flagged for a closer look

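In these members the rapamycin effect of a tagged strain differed from that of wild type by the test of the difference itself (limma interaction, adjusted over all probes). In Mot1-FRB the difference from the wild-type effect was -0.42 for RPA49, -0.46 for RPA190, -0.75 for RPB11, -0.42 for RPO26, -0.53 for RPC40, -0.57 for RPC31, -0.53 for RPC82, -0.42 for RPO31, -0.44 for RET1 and -0.31 for TFC8, on the log2 scale. It was 0.26 for TFC3, 0.51 for TFC7 and 0.39 for RRN5. For RRN5 a part of this difference, here and in NCB2-FRB, was a lower ratio in treated wild type. Wild type had it at 0.01 and 0.08 with rapamycin, against 0.25 and 0.14 without.

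In NCB2-FRB it was -0.57 for RPA49, -0.33 for RPB2, -0.58 for RPB11, -0.46 for RPC40, -0.47 for RPC31, -0.35 for RPC82, -0.49 for RET1 and -0.52 for TFC8. It was 0.73 for RPC37, 0.57 for TFC7, 0.35 for RRN5 and 0.41 for RRN7. Both sets share the wild-type arrays, 1 of which is the dim treated culture a, and without it RPA49, RPO26, RPO31, RET1, TFC3 and TFC8 were no longer called in Mot1-FRB, nor RPB2, RPC40, RPC82 and RRN5 in NCB2-FRB. The probes of RPB11, RPO31 and RRN7 were not above the blanks on that array. Other arrays mattered too. In Mot1-FRB the calls of RPA190 and RRN5 were lost without untreated wild-type culture a. That of RPA190 was also lost without either untreated Mot1-FRB culture, among others. In NCB2-FRB the RPB11 call was lost without untreated NCB2-FRB culture a. The RPA49 and TFC3 calls in Mot1-FRB were lost without any single array other than those of treated NCB2-FRB.

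Between the tagged strains, the Mot1-FRB effect minus the NCB2-FRB effect was -0.60 for RPC37 and -0.46 for RRN7.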

How the results depend on the processing

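Counts are of members called. With median centring the Mot1-FRB effect had 1 higher and 5 lower, the NCB2-FRB effect 1 higher and 1 lower, the excess over wild type 0 higher and 0 lower in each strain, and the strain difference 0 lower; all probes then split 376 higher to 131 lower in Mot1-FRB (1403 to 977 in the fit reported) and 484 to 212 in NCB2-FRB (1454 to 1163). With external control centring the higher counts were 1 for the Mot1-FRB effect, 3 for the NCB2-FRB effect, 1 for the Mot1-FRB excess and 2 for the NCB2-FRB excess, and the lower counts were 6 and 5 for the 2 excesses and 0 for the difference. Of all probes 932 and 1060 were then higher in the Mot1-FRB and NCB2-FRB effects (1403 and 1454 in the fit reported). In the 2 excesses 367 and 506 were higher (811 and 927) and 207 and 300 lower (428 and 572), and 0 were lower in the difference (18). The wild-type median change was -0.14 with median centring and -0.026 with external control centring. With the authors' values 20 were lower in NCB2-FRB, 17 in the Mot1-FRB excess, 9 in the difference and 1 in untreated Mot1-FRB, where 28.3%, 17.1%, 4.68% and 1.03% of all probes were lower (18.2%, 6.70%, 0.282% and 0.110% in the fit reported), and 1 was higher in the difference, against 3.80% of all probes. Without background subtraction 0 were lower in the difference, against 1 of all 6388 probes (18 in the fit reported). With print-tip loess 1 was lower in untreated Mot1-FRB, against 10 of all 6388 probes (7 in the fit reported).

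With the replicate block 30 were lower in Mot1-FRB and 22 in NCB2-FRB, 23 lower in the Mot1-FRB excess, 7 higher and 14 lower in the NCB2-FRB excess, 1 higher and 10 lower in the difference, and 1 lower in untreated Mot1-FRB. Leaving out 1 array at a time gave 2 to 3 higher and 15 to 20 lower in Mot1-FRB, 4 to 6 higher and 9 to 14 lower in NCB2-FRB, 1 to 3 higher and 5 to 11 lower in the Mot1-FRB excess, and 3 to 5 higher and 4 to 9 lower in the NCB2-FRB excess. It gave 0 in the difference, 0 to 1 lower in untreated Mot1-FRB, and a wild-type median of -0.0659 to -0.0323. Without untreated wild-type culture b, the unusable RPC19 probe was counted among the members higher in both excesses and lower in untreated Mot1-FRB. Where 1 array of a group was left out, the other was assumed to vary like the other groups. The calls over all probes moved too when an array was left out, so a change in these counts is not particular to the members. Of the 68 called results of single members, 60 were called with print-tip loess, 8 with median centring, 44 with external control centring, 63 without background subtraction, 64 in the authors' values, 68 with dim probes left out, 68 with the block and 55 to 63 with 1 array left out; none reversed. The cause was not tested.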
